A study of Mus musculus with 80 samples.

Results

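The transcriptomes of 2 wild-type mouse embryonic stem (ES) cell libraries were compared, 1 library a side, out of 80 samples in the series. One library came from TT2, an ES cell line whose strain is given as (C57BL/6NCrlj x CBA/JNCrlj)F1 and whose genotype is given as wild-type. The other came from the wild-type cells that serve as control for the deletion of both Sall1 and Sall4 (the double knockout, DKO), and is called the wild type of DKO here. Its RNA sample is labelled C57BL/6J with no cell line, whereas chromatin samples of the same wild-type cells are labelled E14.1 and 129P2/OlaHsd, so its strain is uncertain. No agent is named for either library, and the growth protocol given with both, worded for TT2, names gelatin-coated dishes without feeder cells, serum replacement and leukaemia inhibitory factor (LIF). The study concerns SALL4A and the TET enzymes, and these libraries show its starting point in unmodified cells. The 3 further libraries, of Sall1 flox/- cells (Sall1 het, labelled C57BL/6J) and of 2 Sall4 flox/- replicates (Sall4 het, labelled C57BL/6J for replicate 1 and E14.1 on 129P2/OlaHsd for replicate 2), are given only to show where each value lies among 5 libraries.

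With 1 library a side no test was possible and no spread between replicates is known. The line and the annotation of the tables differ together, strain, culture and library preparation may differ too, and their parts cannot be told apart. The TT2 table lists 47834 transcripts with gene identifiers, and the other lists 23235 gene symbols, both in FPKM (fragments per kilobase of transcript, scaled to the mapped fragments). TT2 transcripts were summed to symbols, which left 21287 symbols in both tables. Both libraries were scaled by the median ratio, so that the levels below are scaled FPKM, and ratios are log2 of TT2 over the wild type of DKO after adding 1. Symbols at 5 or more in at least 1 library were compared, 8295 in all, and a symbol is called higher or lower at 2-fold. A symbol that reached 5 in 1 library alone entered by being high there, which favours a large ratio. Neither unit holds read totals, so the depth behind a value is unknown.

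Mouse ES cells keep the identity of the early epiblast through a core set of transcription factors around Pou5f1, Sox2 and Nanog. In LIF, STAT3 and a further set that includes Klf4, Klf2, Esrrb and Tbx3 sustain the naive state, while FGF4 signalling through ERK pushes cells towards lineage entry. Immediate early genes such as Fos and Egr1 are transcribed within minutes of serum or growth factor stimulation, many of them through serum response factor, which binds the CArG box.

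Of the 8295 symbols, 2014 (24.3%) were at least 2-fold higher in TT2, 1519 (18.3%) were at least 2-fold lower, and the median log2 ratio was -0.02 with a standard deviation across genes of 1.67. Across these symbols Pearson's r of the log2 values was 0.64 and Spearman's rho 0.59, as a description across genes, which are not independent. The shares of 24.3% and 18.3% are the reference for the counts of each list below. The split into higher and lower rests on the scaling. With the deposited values left unscaled 1135 symbols were higher and 3472 lower, and the median of all symbols moved to -0.76. With scaling to the sum of all shared symbols 230 were higher and 9322 lower. In TT2 10 transcripts hold 73.0% of the sum, against 12.4% in the 10 highest entries of the other table.

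**Figure D1:**
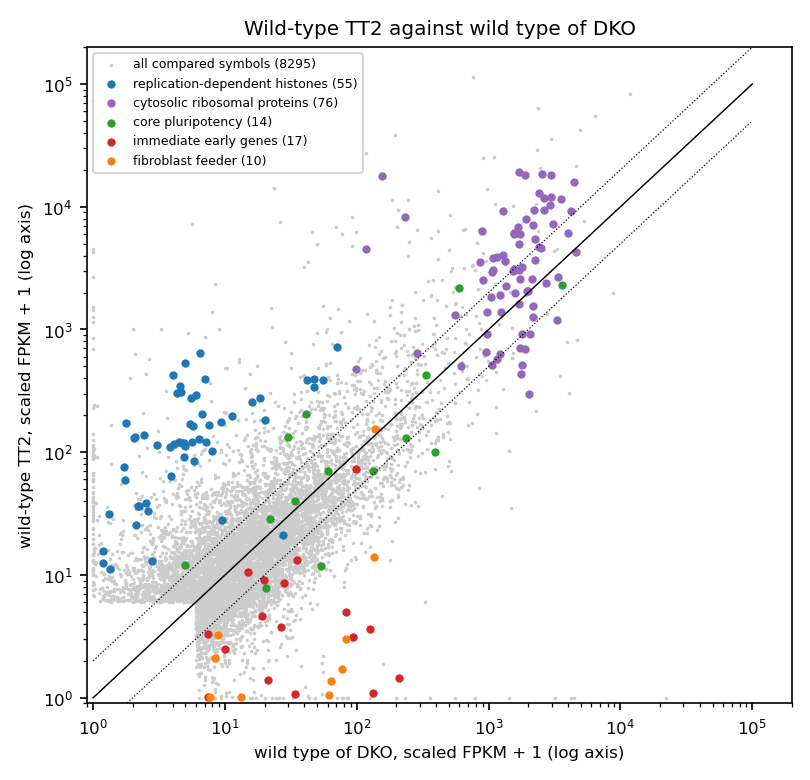
Scaled FPKM + 1 of 8295 compared symbols in wild-type TT2 (vertical, log axis) against the wild type of DKO (horizontal, log axis), 1 point per symbol, with the line of equal level and dotted lines at 2-fold. Histones lie above the upper dotted line apart from 1, and 15 of 17 immediate early genes and 9 of 10 fibroblast genes lie below the lower one.

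TT2 was also set against the 3 other libraries. The comparisons that follow share the TT2 library and are given only side by side. The share of compared symbols at 2-fold in either direction was 42.6% against the wild type of DKO, 43% against the Sall1 het, 42.5% against Sall4 het replicate 1 and 45.2% against Sall4 het replicate 2. Between the Sall1 het and the wild type of DKO, whose tables share an annotation, the share was 10.9%, and between the Sall4 het replicates it was 16.9%. Among the called symbols listed in all 5 libraries, TT2 was the highest of the 5 for 1540 of 1748 higher symbols (88.1%) and the lowest for 1218 of 1429 lower symbols (85.2%). The wild type of DKO was the highest of the 5 for 711 (49.8%) of those lower symbols. The symbols were chosen for a 2-fold difference between TT2 and the wild type of DKO, which favours both at the ends of the order, so these shares serve only as the reference for the lists below.

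The summing of transcripts entered the ratios. A TT2 transcript was called short when it spanned under 50% of the gene's longest one. Short transcripts held over 50% of the TT2 value for 715 compared symbols, among them 386 (19.2%) of the higher symbols, 36 (2.37%) of the lower and 293 (6.15%) of those within 2-fold. Without short transcripts, at the same scaling factors here and below, 1578 of the 2014 higher symbols stayed at 2-fold. The median log2 ratio was -0.21 for 2857 symbols with 1 TT2 transcript and 0.60 for 536 symbols with 6 or more, and the latter became -0.08 without short transcripts. It was 0.48 in the shortest 20% of loci (up to 6.90 kb) and -0.20 in the longest (over 55.8 kb).

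**Figure D2:**
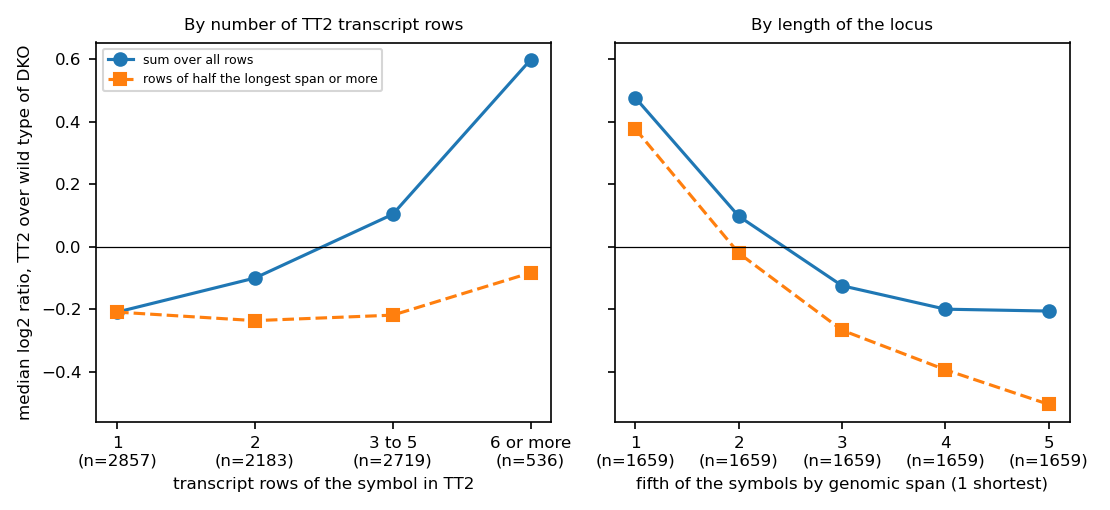
Median log2 ratio of TT2 over the wild type of DKO by the number of TT2 transcripts per symbol (left) and by 5 equal classes of genomic span (right), for the sum over all transcripts (circles) and for those spanning at least 50% of the longest (squares). With all transcripts the median went from -0.21 to 0.60 with their number, while the slope over span remained in both forms.

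The ES cell label held in both libraries. All 15 core pluripotency genes were shared, 14 were compared, and 13 were at 5 or more in both libraries, the exceptions being Lin28b (1.72 in TT2 and 1.13 in the wild type of DKO) and Trim71. The summed level of the 15 genes was 5705 in TT2 and 5533 in the wild type of DKO. Pou5f1, which encodes OCT4, was at 2187 in TT2 and 596 in the wild type of DKO, a log2 ratio of 1.87, and between 340 and 652 in the other 3 libraries. Of the TT2 value 65.2% lay in short transcripts, and without them the log2 ratio was 0.35. Its partner Sox2 was at 70.0 in TT2 and 132 in the wild type of DKO (log2 ratio -0.91), below the other 3 libraries at 149 to 166. Nanog was at 428 and 331 (log2 ratio 0.37), and the other 3 libraries held 95.9, 219 and 285. The core factors were thus abundant in both, with Sox2 and Nanog inside 2-fold.

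Of the 14 compared core genes, 4 were at least 2-fold higher in TT2, 3 were lower and 7 were within 2-fold, with a median log2 ratio of 0.23 beside -0.02 over all symbols. The higher ones were Pou5f1, Dppa4, Utf1 and Trim71. Dppa4, a chromatin protein of pluripotent cells, was at 206 in TT2 and 40.5 in the wild type of DKO (log2 ratio 2.32), and 39.1 to 86.8 elsewhere. Utf1, a chromatin-bound factor of undifferentiated cells, was at 132 and 29.3 (log2 ratio 2.14), but the other 3 libraries lay at 172 to 276, above TT2. Here it was the wild type of DKO that stood lowest of the 5.

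The lower core genes were Fgf4, Tdgf1 and Lin28a. Fgf4, the ES cells' own FGF ligand, was at 10.9 in TT2 and 52.3 in the wild type of DKO, a log2 ratio of -2.17, and between 18.9 and 32.3 elsewhere. Tdgf1, the NODAL co-receptor, was at 99.3 against 388 (log2 ratio -1.96) and at 350 to 483 elsewhere. Lin28a, an RNA-binding protein that blocks let-7 maturation, was at 6.84 against 19.6 (log2 ratio -1.40) and at 44.9 to 63.3 elsewhere. TT2 was the lowest of the 5 libraries for all 3. Zfp42 (REX1) was at 129 against 233, Dppa5a at 2286 against 3592, L1td1 at 69.8 against 59.4, Gdf3 at 38.9 against 32.8 and Dppa2 at 27.8 against 20.9, all within 2-fold.

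The naive set leaned the other way. Of 23 genes 20 were compared, and 8 were at least 2-fold lower in TT2, 1 was higher and 11 were within 2-fold, with a median log2 ratio of -0.68. Klf4, a Krüppel-like factor downstream of LIF, was at 12.6 in TT2 and 97.8 in the wild type of DKO, a log2 ratio of -2.86. The Sall1 het was at 32.2 and the Sall4 het replicates were at 34.9 and 15.6, so TT2 was the lowest library and the wild type of DKO the highest. Klf2 was at 39.3 against 178 (log2 ratio -2.15) and 89.2 to 118 elsewhere. Tbx3 was at 5.95 against 24.3 (log2 ratio -1.86), Spp1, which encodes osteopontin, at 125 against 411 (log2 ratio -1.71), and Fbxo15 at 55.2 against 154 (log2 ratio -1.47). TT2 was inside the range of the 3 other libraries for Tbx3 and Spp1. Tcl1 (log2 ratio -1.20), Esrrb (-1.12) and Nr0b1 (-1.02) were the remaining lower genes, and for Esrrb 96.5% of the TT2 value lay in short transcripts.

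The higher naive gene was Gbx2, at 6.27 in TT2 and 2.54 in the wild type of DKO, with the Sall1 het above both at 12.7. Klf5 (34.2 against 20.05), Prdm14 (10.6 against 11.0), Pecam1 (22.1 against 23.6) and Jam2 (34.9 against 38.9) were within 2-fold, as were Tfcp2l1, Nr5a2, Dppa3, Zfp42, Morc1, Tex19.1 and Mras at log2 ratios between -0.85 and -0.38. Dusp6, Zfp459 and Slc15a1 were below the minimum in both libraries. Without short transcripts 10 naive genes were lower. For all 7 lower naive genes listed in 5 libraries the wild type of DKO was the highest library, beside 49.8% of all lower symbols, and TT2 was the lowest for 5 of them.

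**Figure D3:**
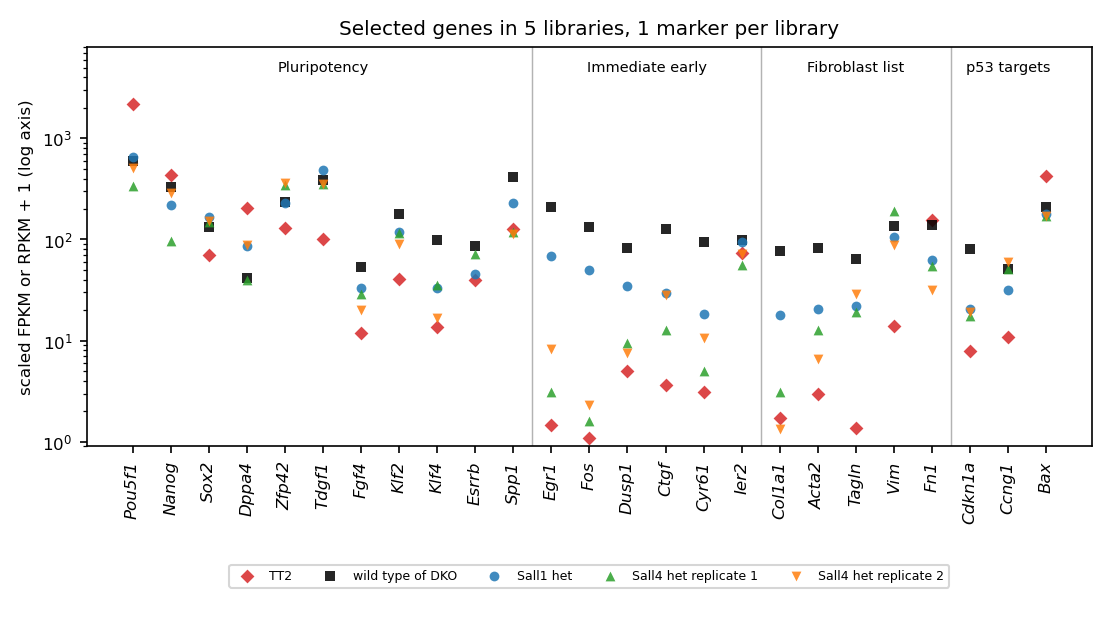
Scaled FPKM (RPKM for Sall4 het replicate 2) + 1 on a log axis for genes of 4 lists, with 1 marker per library and no marker where a table lacks the gene. Egr1 and Fos run from 0.453 and 0.103 in TT2 to 209 and 133 in the wild type of DKO, with the Sall1 het nearer the latter and the Sall4 hets nearer TT2; Ier2, Fn1, Bax and others here were picked to show the range.

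The pathways that act on this state gave mixed values. In the LIF and STAT3 list, 6 of 16 compared genes were lower and 1 was higher, with a median of -0.74. Of the 6, Klf4 is also in the naive list, and Junb and Ier3 are also in the immediate early list. Stat3 itself was at 12.7 against 15.7 and its feedback inhibitor Socs3 at 17.1 against 21.0. The kinase genes Pim1 (9.06 against 50.6, log2 ratio -2.36) and Pim3 (16.5 against 49.1, log2 ratio -1.52), which are LIF targets, were lower, and Myc was higher at 6.995 against 0.784 (log2 ratio 2.16). For Myc the other 3 libraries held 6.81 to 16.4, so the wild type of DKO was the one apart. Stat3 and Socs3 were named after their values were seen and do not stand for the list, where 14 of 16 ratios were negative. Without short transcripts 9 genes of the list were lower and 1 was higher, with a median of -1.15.

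In the FGF and ERK list, 5 of 9 compared genes were lower and 2 were higher, beside 18.3% and 24.3% of all symbols. Of the 5, Fgf4 is also in the core list, and Egr1 and Fos are also in the immediate early list. Etv4 and Etv5 are also in the primed epiblast list. Spry2, an inhibitor of receptor signalling, was at 9.54 against 32.8 (log2 ratio -1.68) and Etv5 at 16.8 against 39.4 (log2 ratio -1.18). Their relatives stood opposite. Spry4 was at 6.92 against 0.272 (log2 ratio 2.64), and Etv4 at 167 against 9.07 (log2 ratio 4.06). The other 3 libraries held 7.64 to 18.1 of Spry4 and 13.1 to 16.5 of Etv4, so Spry4 was low in the wild type of DKO and Etv4 was high in TT2.

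For the other signalling lists the counts were 3 higher and 3 lower of 12 compared WNT genes, 1 and 4 of 12 NODAL genes, and 2 and 2 of 6 BMP genes. Over all symbols 24.3% were higher and 18.3% lower, and the WNT shares, 25% each, were near these. Of the compared genes, 7 WNT, 9 NODAL and 1 BMP (Id3) were at 5 or more in both libraries. The others passed the minimum in 1 library alone, which favours a large ratio. Tdgf1 of the core list is among the 4 lower NODAL genes. Porcn, which acylates WNT ligands, was at 46.9 against 4.10 (log2 ratio 3.23), and Wls, which carries them to the surface, at 0.558 against 12.0 (log2 ratio -3.06). The WNT inhibitor Notum was at 33.3 against 6.06 (log2 ratio 2.28). Nodal was at 9.40 against 23.5 (log2 ratio -1.23). Bmp4 was at 20.03 against 1.05 (log2 ratio 3.36), and its target Id1 at 44.8 against 4.93 (log2 ratio 2.95), whereas Id2 was at 0.389 against 10.6 (log2 ratio -3.07) and Id3 at 23.7 against 22.8. The higher calls of Tcf7 (log2 ratio 1.66, or -1.004 without short transcripts) and Smad3 (1.84, or -1.14) came from short transcripts.

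The primed epiblast list had 8 of 20 shared genes compared, with 1 higher (Etv4) and 3 lower (Cldn6, Nodal and Etv5). Its defining gene Fgf5 was at 0.150 in TT2 and 0.0471 in the wild type of DKO, near 0 in both, against 2.34 in the Sall1 het. Otx2, at 0.808 and 3.32, was far below the Sall1 het at 17.4. Both wild-type libraries were therefore low for these epiblast genes, which were named after their values were seen.

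Immediate early genes were lower in TT2 as a group. Of 17 compared genes 15 were at least 2-fold lower, none was higher, and all 17 ratios were negative, with a median of -2.81. Of the 17, 5 were at 5 or more in both libraries, with Junb, Jund and Ier3 lower and Ier2 and Nr4a1 within 2-fold. The others passed the minimum through the wild type of DKO alone, which favours a lower call. Egr1, a zinc finger factor (mm9 chr18:35020860-35024610), was at 0.453 in TT2 and 209 in the wild type of DKO, a log2 ratio of -7.18. The Sall1 het held 67.2 and the Sall4 het replicates 2.09 and 7.30. Fos, the partner of JUN in AP-1 (mm9 chr12:86814850-86818219), was at 0.103 against 133 (log2 ratio -6.92), with 49.0 in the Sall1 het and 0.610 and 1.29 in the Sall4 hets. Both genes thus split the 5 libraries, with TT2 and the Sall4 hets low and the other 2 high.

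Ctgf and Cyr61, secreted targets of serum response factor and YAP, were at 2.64 against 126 (log2 ratio -5.12) and at 2.12 against 92.8 (log2 ratio -4.91). Dusp1, the phosphatase that ends MAP kinase signals, was at 4.03 against 81.3 (log2 ratio -4.03), and Fosb at 0.0728 against 33.0 (log2 ratio -4.98). Btg2, an antiproliferative gene and also a p53 target, was at 2.81 against 25.7 (log2 ratio -2.81). Ier2 (72.1 against 98.0) and Nr4a1 (9.63 against 13.8), named after their values were seen, were within 2-fold. Of the 12 lower genes listed in all 5 libraries, TT2 was lowest for 11 and the wild type of DKO highest for 10. The summed level of the 18 genes was 130 in TT2, 953 in the wild type of DKO, 433 in the Sall1 het, and 175 and 193 in the Sall4 hets. The sum of 193, for Sall4 het replicate 2, lacks Fosb, Egr2 and Klf10, which have no value there.

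Upstream sequence was examined for the CArG box (both strands read alike, since the motif is its own reverse complement), because many of these genes are known targets of serum response factor. In the 250 bases before each start in RefSeq, build GRCm38.p6, the box was present for 2 of 13 immediate early genes with a sequence (15.4%), for 97 of 6573 compared symbols (1.48%) and for 29 of 1193 lower symbols (2.43%). The 2 genes were Egr2 and Zfp36, and their stretches are printed with the box in capitals, 5′ to 3′ on the gene's strand. Egr2 (chr10:67537454-67537543, plus strand, 1 of 5 starts, box beginning 72 bases before the start) and Zfp36 (chr7:28379237-28379326, minus strand, box beginning 58 bases before) read as follows.
Egr2: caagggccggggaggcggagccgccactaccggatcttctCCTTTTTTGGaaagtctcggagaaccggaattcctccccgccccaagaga
Zfp36: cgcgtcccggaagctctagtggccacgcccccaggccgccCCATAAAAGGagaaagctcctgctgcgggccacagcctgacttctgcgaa
Egr2, a relative of Egr1, was at 0.0104 in TT2 and 6.45 in the wild type of DKO (log2 ratio -2.88). Zfp36, which encodes a protein that speeds the decay of AU-rich mRNAs, was at 1.51 against 8.93 (log2 ratio -1.99). Both were chosen for their box after values were seen, a match is a description of letters only, and the other 11 genes, Fos among them, had no box in this window. The 5 genes without a sequence were Egr1, Egr3, Ier2, Klf10 and Ctgf.

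Most compared genes of fibroblasts were lower in TT2. Of 16 genes 10 were compared, 9 were at least 2-fold lower and the median log2 ratio was -3.49. Of the 10, 2 (Vim and Fn1) were at 5 or more in both libraries. The others passed the minimum through the wild type of DKO alone, which favours a lower call and a more negative median. The members below the minimum had negative ratios too, from -1.55 (Fbn1) to -0.39 (Lum). Col1a2, a chain of type I collagen, was at 0.0472 in TT2 and 60.7 in the wild type of DKO (log2 ratio -5.88), with 14.2 in the Sall1 het and 3.64 and 1.29 in the Sall4 hets. Col1a1 was at 0.720 against 76.2 (log2 ratio -5.49), and Col3a1 at 0.0155 against 12.3 (log2 ratio -3.71). The smooth muscle genes Tagln and Acta2 were at 0.358 against 62.5 (log2 ratio -5.55) and at 1.99 against 82.0 (log2 ratio -4.79), and Vim, an intermediate filament gene, at 13.0 against 134 (log2 ratio -3.27). The Sall1 het lay between the 2 wild-type libraries for all 6 genes. It also lay above at least 1 Sall4 het for each of them.

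Fn1, which encodes fibronectin and was named after its values were seen, was at 154 against 137, but 74.6% of the TT2 value lay in short transcripts and the log2 ratio without them was -1.78. The fibroblast genes Lum and Dcn were listed at 0 in TT2 and at 0.311 and 0.725 in the wild type of DKO. The summed level of the 16 genes was 176 in TT2, of which Fn1 held 154, and 596 in the wild type of DKO, with 336 in the Sall1 het and 295 and 160 in the Sall4 hets. The sum of 160 lacks Dcn and Postn, which have no value in that library. In bulk RNA fewer cells of a type and less RNA per cell cannot be told apart, and the part of such cells in the immediate early and matrix values was not tested.

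**Figure D4:**
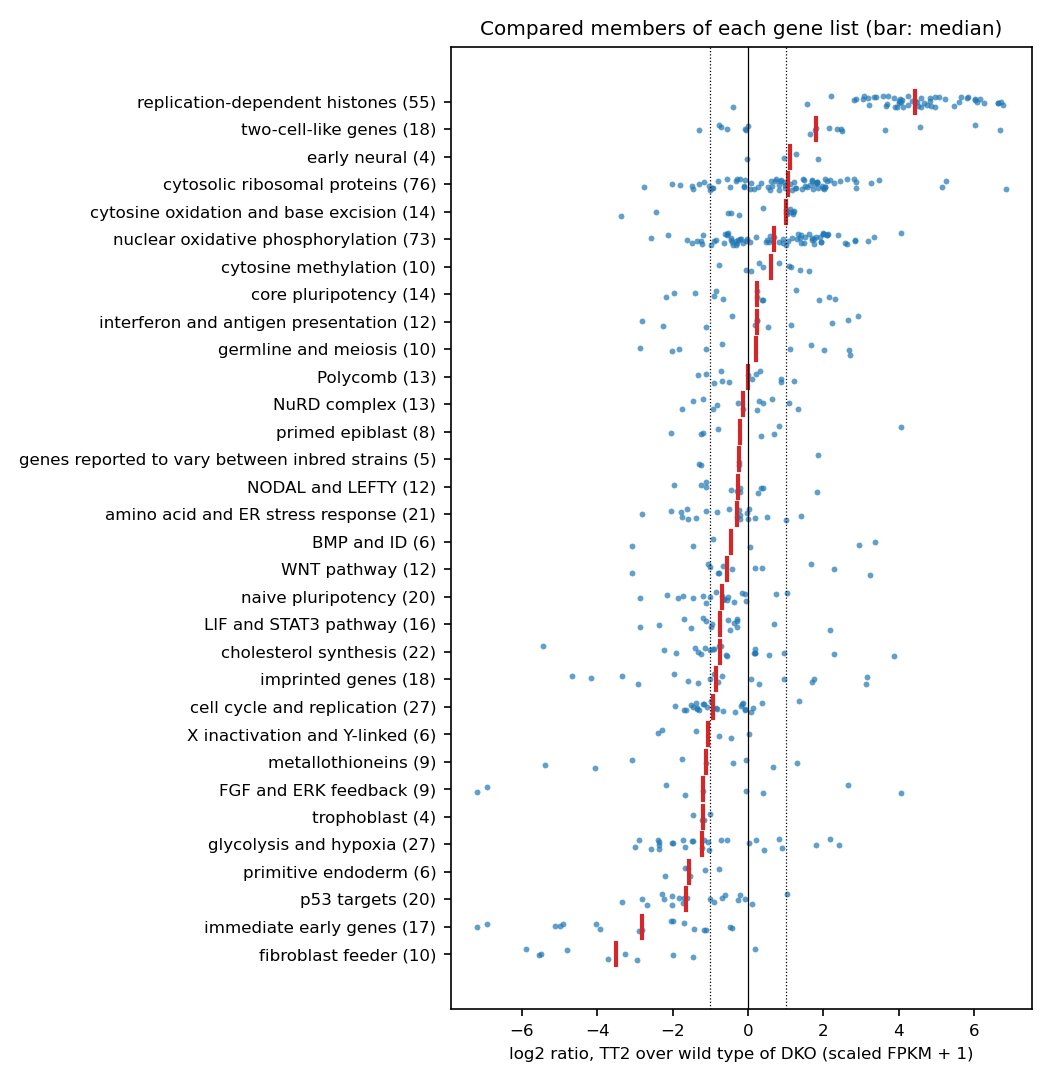
Log2 ratios of TT2 over the wild type of DKO for the compared members of each list with at least 4 of them (number in brackets), 1 point per gene, with a bar at the list's median and dotted lines at 2-fold. Histones lie at the high end with a median of 4.43 and the fibroblast and immediate early lists at the low end with medians of -3.49 and -2.81.

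Lists of lineages outside the epiblast had 1 to 6 compared genes each. Of 20 primitive endoderm genes 6 were compared and 5 were lower, all of them basement membrane genes, led by Sparc at 52.7 against 247 (log2 ratio -2.21) and Lamc1 at 12.1 against 40.8 (log2 ratio -1.68). Of the 6, Sparc and Lamc1 alone were at 5 or more in both libraries. The defining factors Gata6 (0.458 and 0.302), Gata4 (0.383 and 0.676) and Sox17 (0.269 and 0.144) were near 0 in both libraries. The 4 compared genes of the trophoblast list were all lower in TT2, at log2 ratios from -1.47 (Tfap2c, 7.10 against 21.5) to -1.01 (Phlda2), while its defining gene Cdx2 was at 0.0428 and 0.0434. Of the 4, 2 (Tfap2c and Phlda2) were at 5 or more in both libraries, and the others passed the minimum through the wild type of DKO alone. Trophoblast genes below the minimum had ratios from -2.17 (Krt7) to 1.00 (Elf5). Gsc was the compared gene of the primitive streak list, at 0.485 against 6.06 (log2 ratio -2.25). Of the early neural list 4 genes were compared, 2 higher and none lower, with a median of 1.10. Without short transcripts 1 was higher and the median was 0.48. Early neural genes below the minimum had ratios from -1.04 (Nes) to 0.25 (Pax6), and Sox1 was at 0.498 and 1.00. Mapt, which encodes the microtubule protein tau, was at 16.6 against 6.34 (log2 ratio 1.26), Tubb3, a neuronal tubulin, at 54.6 against 27.8 (log2 ratio 0.95) and Stmn2 at 141 against 145. Ncam1 was higher at 8.43 against 1.58, with 81.0% of the TT2 value in short transcripts. The defining factors of endoderm and trophoblast, and the early neural genes below the minimum, were named after their values were seen.

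Genes active in the rare 2-cell-like cells of ES cultures were compared next. Of 18 compared genes 11 were higher in TT2 and 1 was lower, with a median log2 ratio of 1.80. Of the 15 above 0 in the wild type of DKO 8 were higher and 1 was lower, with a median of 1.63. Of the 18, 9 were at 5 or more in both libraries, and the others passed the minimum through TT2 alone, which favours a higher call. Among those 9, Gm4340 and Tmem92 were higher, Eif1a was lower and the 6 Zscan4 genes were within 2-fold. Tcstv1, Tcstv3 and AF067063 were at 102, 64.1 and 22.6 in TT2 and were listed at 0 in the wild type of DKO and in the Sall1 het, so no fold is given for them. All 3 lie on unplaced contigs of mm9, where 13 of 18 compared symbols were listed at 0 in the wild type of DKO and none in TT2, Hmgcs1 of cholesterol synthesis among the 13, so these zeros cannot be read as absence. Tdpoz4 was at 15.1 against 0.289 (log2 ratio 3.64), Zfp352 at 7.49 against 0.501 (log2 ratio 2.50) and Dub2a at 12.5 against 1.46 (log2 ratio 2.46). The 6 compared Zscan4 genes were within 2-fold, Zscan4c at 50.0 against 82.7 and Zscan4d at 37.6 against 39.9. These families hold near-identical copies, between which reads can be split, so the single values are uncertain.

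Sall4 and Sall1 were within 2-fold in the wild-type libraries. Sall4 (mm9 chr2:168573831-168592701) was at 16.4 in TT2 and 13.7 in the wild type of DKO, a log2 ratio of 0.24, and 98.9% of its deposited TT2 value lay in 1 of 4 transcripts. Sall1 was at 13.9 against 10.9 (log2 ratio 0.33). Sall2 (0.470 and 1.24) and Sall3 (0.133 and 1.43) were below the minimum in both. Sall4 stood at 14.7 in the Sall1 het and at 136 and 46.1 in the Sall4 hets, above both wild-type libraries.

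Tet1, which oxidises 5-methylcytosine, was at 17.9 in TT2 and 8.38 in the wild type of DKO, a log2 ratio of 1.01, and Tet2 was at 12.7 against 5.00 (log2 ratio 1.19, or 0.99 without short transcripts). Tdg, the glycosylase that removes oxidised bases, was at 14.4 against 6.68 (log2 ratio 1.00), which placed it at the 2-fold limit, and Tet3 was below the minimum at 0.727 and 0.278. Tet1 was spread over 3 transcripts with 44.8%, 39.7% and 15.4% of its TT2 value. In this list 8 of 14 compared genes were higher and 2 were lower, with a median of 1.00. With the highest transcript alone the median was 0.17, so the count rests on the summing. Just outside the limit were Dus2l and Ngrn at log2 ratios of 0.9995 and 0.9986, with Fitm2 just inside at 1.001. On the low side Yeats4 and Rps6 lay just inside, both at -1.001, and Pir and Nup43 just outside at -0.9991 and -0.9981.

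Dnmt1, the maintenance methyltransferase, was at 35.2 against 33.3 (log2 ratio 0.08) and its partner Uhrf1 at 45.7 against 78.2 (log2 ratio -0.76). Dnmt3a was at 5.82 against 4.58 (log2 ratio 0.29), but 70.5% of its TT2 value lay in short transcripts and the log2 ratio without them was -1.04. Dnmt3b was at 13.9 against 7.47 (log2 ratio 0.81), and the other 3 libraries held 34.4 to 80.5 of Dnmt3b. Dnmt3l, the cofactor of de novo methylation, was higher in TT2 at 61.5 against 19.4 (log2 ratio 1.62) but at 121 to 170 elsewhere. Both wild-type libraries were therefore below the het libraries in Dnmt3b and Dnmt3l. Of 10 compared genes of this list 4 were higher and none was lower, with a median of 0.61. Without short transcripts 2 were higher and 2 were lower, with a median of 0.22, so these counts rest on the summing.

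In the chromatin complexes 8 of 13 compared NuRD genes and 10 of 13 Polycomb genes lay within 2-fold, beside 57.4% of all compared symbols. Their medians were -0.13 and 0.01. Without short transcripts 5 NuRD genes were lower and 1 was higher, with a median of -0.83. For Polycomb 4 were then lower and 1 was higher, with a median of -0.51. The NuRD subunits Hdac2 (24.7 against 86.0, log2 ratio -1.76), Rbbp4 (26.4 against 73.9, log2 ratio -1.45) and Rbbp7 (37.9 against 87.2, log2 ratio -1.18) were lower. Chd3 was higher at 11.1 against 3.78 (log2 ratio 1.34). Ezh2, the H3K27 methyltransferase, was at 22.03 against 48.9 (log2 ratio -1.12), and Cbx7, a reader of that mark, at 68.9 against 28.8 (log2 ratio 1.23).

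Replication-dependent histone genes stood furthest to the high side. Of 63 listed symbols 57 were shared and 55 compared. The 55 included 54 (98.2%) at least 2-fold higher in TT2, beside 24.3% of all symbols, with a median log2 ratio of 4.43. Of the 55, 20 were at 5 or more in both libraries. The others passed the minimum through TT2 alone, which favours a higher call. The 12 H4 genes ran from 129 to 640 in TT2 and from 1.02 to 19.01 in the wild type of DKO. The 11 H3 genes ran from 58.2 to 291 against 0.704 to 10.4, and the 13 H2A genes from 11.9 to 715 against 0.317 to 69.6. The 5 H1 genes ran from 10.3 to 63.6 against 0.193 to 8.44, and 13 of 14 H2B genes were higher.

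Hist1h4a was at 535 in TT2 and 3.94 in the wild type of DKO (log2 ratio 6.76), and Hist1h4d at 640 against 5.50 (log2 ratio 6.62). The H2B gene within 2-fold, named after its value was seen, was Hist1h2bc, at 20.2 against 26.8. Of the 52 higher genes listed in 5 libraries TT2 was the highest for 50, beside 88.1% of all higher symbols. Summed levels were 10035 in TT2, 499 in the wild type of DKO, 623 in the Sall1 het, and 1850 and 484 in the Sall4 hets. The sum of 1850 lacks Hist3h2a and that of 484 lacks Hist2h4, which have no value there. Messages of these genes end in a stem-loop and most lack a poly(A) tail. The TT2 library is described as mRNA-seq, the labels of the other do not say how RNA was selected, and the part of that step was not tested. Many histone copies are near-identical, so values of single copies are uncertain.

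Abundant genes as a class were often higher in TT2: of all symbols with a mean level of 100 or more, 47.2% were higher and the median was 0.83. The lists of ribosomal and respiratory genes, both abundant, had shares near that. Of 76 cytosolic ribosomal protein genes, all compared, 38 (50%) were higher and 9 lower, with a median of 1.06. Their log2 ratios ran from -2.76 to 6.83. Rps27 was at 17663 against 154 (log2 ratio 6.83), Rpl30 at 4496 against 116 (log2 ratio 5.26) and Rps14 at 19084 against 1702 (log2 ratio 3.49). Rps27 was at 11.5 in the Sall1 het, so this gene also varied among libraries with the same annotation. Of 73 nuclear genes of oxidative phosphorylation 33 (45.2%) were higher and 8 lower, with a median of 0.70. Uqcr10, a small subunit of complex III, was at 8487 against 508 (log2 ratio 4.06), and Atp5k, of the ATP synthase, at 6483 against 635 (log2 ratio 3.35). Of the shortest 20% of loci 38.6% were higher.

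Glycolysis and hypoxia genes were mostly lower, 17 of 27 compared, with 3 higher and a median of -1.22. Aldoa, an aldolase, was at 142 against 1144 (log2 ratio -3.01), and Pgk1, phosphoglycerate kinase, at 69.4 against 519 (log2 ratio -2.88). Bnip3, a mitophagy gene induced by hypoxia, was at 6.74 against 45.2 (log2 ratio -2.58). TT2 was the lowest of 5 libraries for 15 of the 17 and the wild type of DKO the highest for 5. Vegfa was higher at 146 against 26.7 (log2 ratio 2.41), with 70.7% of the TT2 value in short transcripts and a log2 ratio of 0.66 without them.

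Of 20 compared p53 targets 12 (60%) were lower, beside 18.3% of all symbols, and 1 was higher, with a median of -1.64. Of the 20, 12 (not the same set) were at 5 or more in both libraries. The others passed the minimum in 1 library alone. For Plk2 and Trp53inp1 this was the wild type of DKO, which favours a lower call. Cdkn1a, the cell cycle inhibitor p21, was at 6.95 in TT2 and 78.8 in the wild type of DKO (log2 ratio -3.33), and at 16.5 to 19.6 elsewhere. Plk2 was at 1.60 against 15.5 (log2 ratio -2.67), Trp53inp1 at 3.45 against 20.5 (log2 ratio -2.27) and Ccng1 at 9.77 against 49.8 (log2 ratio -2.24). TT2 was the lowest library for all 12 lower genes, beside 85.2% of all lower symbols, and the wild type of DKO the highest for 10. Bax, named after its value was seen, was the higher gene, at 424 against 208.

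Cell cycle genes had 12 lower and 1 higher of 27 compared, with a median of -0.93. Rrm2, a ribonucleotide reductase subunit, was at 35.5 against 139 (log2 ratio -1.94), the replicative helicase gene Mcm6 at 25.2 against 83.2 (log2 ratio -1.69) and Ccna2 at 18.9 against 56.1 (log2 ratio -1.52). In the list of amino acid and ER stress genes, 8 of 21 compared were lower and 2 higher. Asns, asparagine synthetase, was at 38.3 against 277 (log2 ratio -2.82), and the ER chaperone gene Hsp90b1 at 49.2 against 204 (log2 ratio -2.03). In cholesterol synthesis 8 of 22 were lower and 2 higher, with Fdps at 40.1 against 153 (log2 ratio -1.91) and Insig1 at 11.8 against 59.2 (log2 ratio -2.24).

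Of the 9 compared genes for metal binding and iron, 5 were lower. Mt2, a metallothionein, was at 34.1 against 1473 (log2 ratio -5.39) and Mt1 at 50.3 against 846 (log2 ratio -4.05). The Sall4 het replicates were at 224 and 2578 for Mt2, on either side of the wild type of DKO. Ftl1, the ferritin light chain, was at 418 against 3505 (log2 ratio -3.07), and at 306 and 379 in the Sall4 hets, below TT2.

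Of 18 compared imprinted genes 8 were lower and 4 higher. H19 and Igf2, neighbours under 1 imprinting control region, were at 1.17 against 54.3 (log2 ratio -4.67) and at 0.0555 against 17.9 (log2 ratio -4.16). Meg3, from the maternal allele of the Dlk1 domain, was at 521 against 57.3 (log2 ratio 3.16), with 70.6 and 73.8 in the 2 other libraries that list it. Its neighbours did not share this difference. Rian had a log2 ratio of 1.74, or -1.09 without short transcripts, and Mirg, below the minimum, was at 0.746 against 4.71. Snrpn was at 2.08 against 30.0 (log2 ratio -3.33), with all of its TT2 value in short transcripts, and Grb10 at 0.933 against 13.6 (log2 ratio -2.92). Nespas was higher at 12.8 against 0.578 (log2 ratio 3.13), and it overlaps Gnas on the other strand, so without strand its reads cannot be told from those of Gnas.

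Germline genes were divided, 5 higher and 4 lower of 10. Hormad2 was at 16.8 against 1.78 (log2 ratio 2.68) and Tdrd12 at 3.75 against 33.6 (log2 ratio -2.86). In the interferon and antigen list 4 of 12 were higher and 3 lower. H2-K1, a class I heavy chain, was at 98.0 against 14.6 (log2 ratio 2.66) and Bst2 at 131 against 16.4 (log2 ratio 2.93), while B2m, the light chain of class I, was at 4.40 against 36.9 (log2 ratio -2.81). Genes of the class I complex thus lay on both sides. Heavy chain genes are polymorphic between strains, and the effect of that on counting was not tested.

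Both libraries expressed Y-linked genes. Eif2s3y was at 6.66 in TT2 and 36.4 in the wild type of DKO (log2 ratio -2.29), and Ddx3y at 1.04 against 9.69 (log2 ratio -2.39). Their X-linked relatives Eif2s3x (25.3 against 67.5, log2 ratio -1.38) and Ddx3x (50.4 against 86.0, log2 ratio -0.76) were also at lower levels in TT2. The X-linked Kdm6a (7.51 against 7.27) and Kdm5c (9.15 against 12.9) were within 2-fold. The Y-linked Uty, Kdm5d, Usp9y, Zfy1, Zfy2 and Sry were below the minimum in both libraries. Their log2 ratios ran from -0.68 (Uty) to 0.62 (Kdm5d), and Sry was listed at 0 in both. Xist, the RNA that silences an X chromosome, was at 0.328 and 1.69, and Tsix at 2.99 and 1.10, below the minimum in both. Of 6 compared genes of this list 3 were lower and none was higher.

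The ends of the ranking show how far single symbols can be read. Among the 20 largest ratios on the high side, after predicted genes, clones, pseudogenes and small RNAs were left out, 7 had over 50% of the TT2 value in short transcripts, led by Arsk, an arylsulfatase gene, at 625 against 1.09 (99.6% in short transcripts), and 4 were histones. Snhg9, a snoRNA host, was at 7469 against 25.0 (log2 ratio 8.17) with 1 transcript. On the low side 5 of 20 were immediate early genes and 3 were in the fibroblast list, with the matrix genes Bgn (0.0698 against 53.6), Thbs1 (0.0264 against 41.8) and Lox (0.0358 against 32.4) beside them. The lowest was Chchd10, a mitochondrial protein gene, at 2.47e-05 against 358, and Fdft1, squalene synthase, stood at 4.74e-06 against 42.2. Fdft1 lay between 19.8 and 32.8 in the other 3 libraries. Hmgcs1, an enzyme of cholesterol synthesis, was listed at 0 in the wild type of DKO and at 13.6 in TT2. Values at or near 0 for such broadly used genes are estimates of the tables, and 32 compared symbols were listed at 0 in TT2 and 68 in the wild type of DKO.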

How the data were processed

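RNA-seq tables of 5 libraries were read. The authors deposited FPKM per transcript for TT2 and per gene for the wild type of DKO, the Sall1 het and Sall4 het replicate 1, and RPKM per gene for Sall4 het replicate 2, per the file headers; the TT2 table is named RPKM but its column is FPKM. The submitters' processing notes name TopHat, Bowtie 0.12.7, SAMtools, MACS 1.4.2 and mm9 for the series; which made each table, and the strand setting, are not given in the sources used here. Whole reads could not be recovered, since 7246 TT2 transcripts lie above 0 and under 0.001.

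In Python 3.11.15 (pandas 2.3.3, numpy 2.4.6), 21548 of 21689 TT2 gene identifiers (99.3%) and 22876 of 23235 symbols, 2275 of these by an older symbol, were matched to RefSeq names of GRCm38.p6, used for names only. TT2 transcripts were summed per symbol. Of 21287 shared symbols, 38 had loci that did not overlap. Values were divided by factors of 0.779 for TT2 and 1.28 for the wild type of DKO (10102 symbols at 1 or more in both), and the other 3 libraries were scaled to the latter. The script was tested on simulated data.

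The libraries, rule and 36 gene lists were chosen with earlier results of these data known. Genes to be named were all members of the SALL, core, naive and X and Y lists and the main TET and DNMT genes. Up to 6 largest ratios of each other list and the 20 largest per direction were added, and some of these are not printed. Mitochondrially encoded genes had no shared symbol. The authors' tables of other libraries and the chromatin samples were not used here.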

Additional observations from a re-analysis of the deposited data

How the results depend on the processing

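No paired analysis was possible because each group holds 1 library and no result comes from a test. Both counts stayed within 1.5 times under pseudocounts of 0.1 and 0.5, other minimum levels, upper-quartile scaling, the highest transcript alone, and without predicted genes and small RNAs. With unscaled values they were 1135 higher and 3472 lower, with scaling to the sum 230 and 9322, and with single-transcript symbols alone 760 and 570, where fewer symbols (2848) were compared.

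Scaling to the sum shifted the median of all symbols to -2.76, and every reversal under it is of a ratio that was positive. List medians became cytosine oxidation and base excision -1.92, two-cell-like genes -1.45, early neural -2.60, Rhox genes -1.74 and cytosolic ribosomal proteins -2.09. Gene ratios became Atp5e -0.29, Bst2 -0.14, Cbx7 -1.84, Chd3 -1.37, Dnmt3l -1.43 and Dppa4 -0.79. Others became Dub2a -0.032, Gbx2 -1.46, H2-D1 -1.79, H2-K1 -0.39, H2-T23 -0.89 and Mapt -1.59. Others became Mbd3 -2.004, Mt3 -1.03, Ncam1 -0.57, Ndufs5 -0.50, Notum -0.64 and Pou5f1 -1.27. Others became Rhox1 -0.080, Rps21 -0.27, Smad3 -0.85, Stag3 -0.88, Tcf7 -1.36 and Tdg -1.84. Others became Tet1 -1.89, Tet2 -1.59, Tm7sf2 -0.70, Trim71 -1.44, Tuba3b -0.030 and Uqcr11 -0.31. Others became Utf1 -0.96, Vegfa -0.68 and Wdfy1 -1.02.

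With symbols at 1 or more compared, list medians became primitive streak and mesoderm 0.22, early neural -0.039. With no minimum they became primitive endoderm 0.023, primitive streak and mesoderm 0.012, early neural -0.021. With single-transcript symbols the median became, for cytosine oxidation and base excision -0.31. Without short transcripts and with scaling factors set anew, an alternative chosen after seeing the data, gene ratios became Fyb -0.015, Smad3 -1.05, Tcf7 -0.85. Without short transcripts 1754 symbols were higher and 1493 lower; without symbols at 0 the counts were 1946 and 1487, and with overlapping loci alone 2007 and 1518, also added after seeing the data. The cause of these shifts was not tested. With 1 library a side and no read totals, the spread between cultures and the counting error are both unknown.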
